A study of Arabidopsis thaliana with 8 samples.

Results

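The Agilent Arabidopsis array carried 43603 distinct non-control probes. Of these, 5860 targeted expressed sequence tags (ESTs), submitted sequences, assembled transcripts or gene-index entries, and not a RefSeq transcript. They were taken as every non-control probe whose target accession opened neither with a RefSeq mRNA or noncoding prefix nor with the array's own probe prefix, so no measured value entered the choice. The 5860 probes covered 5713 accessions, of which 5584 had 1 probe, 114 had 2, 12 had 3 and 3 had 4. The other probes were 35617 for RefSeq mRNAs, 481 for RefSeq noncoding RNAs and 1645 with no transcript accession.

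RNA came from 12-day-old seedlings kept at 4 °C for 1 day, with 2 one-colour arrays for each of 4 genotypes: C24 (the wild type carrying the luciferase reporter), ros1-1, ros1-1 hda6-9 and ros1-1 hda6-10. The ros1-1 single mutant was the reference, both hda6 alleles were in the ros1-1 background and in the C24 accession, and all 4 lines carried the RD29A::LUC transgene. The hda6-9 allele has a T-DNA insertion just before the stop codon, and hda6-10 has a small deletion in the first exon that leads to a truncated protein. Each allele was a single isolate from a T-DNA-mutagenised population, so other insertions in either line cannot be told apart from the allele.

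HDA6 is an RPD3-like histone deacetylase that keeps transgenes, repeats and some genes transcriptionally silent together with DNA methylation, and ROS1 is a DNA glycosylase that removes methylated cytosine. An EST is a single read of a cloned cDNA, and an assembly joins overlapping reads into 1 consensus, so such entries record transcripts that were seen at least once in some tissue and that may have no curated gene model. A probe for such an entry can therefore report transcription outside the curated gene set. Not all members are of this sort: NP entries are read below as annotated coding sequences, and submitted sequences can be genomic. The files gave the accessions and no gene name, description, position or probe sequence for them, and none of the 5713 accessions matched the RefSeq gene table, so the probes are called by accession and no function is given.

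By opening letters the members fell into 42 accession classes, of which 21 held at least 20 probes, and the 125 probes of the smaller classes were pooled. The assembled transcripts were the largest kind with 2381 probes, made up of TA accessions (plant transcript assemblies, 1555 probes) and TC accessions (tentative consensus sequences, 826 probes). ESTs made up 1724 probes, the largest EST classes being BP (472), EG (423), AV (250) and DR (173). NP accessions, which are not RefSeq protein accessions and are read here as gene-index entries for annotated coding sequences, made up 929 probes. The remaining 826 probes were submitted cDNA or genomic sequences, chiefly BX (332), AK (199) and AY (113).

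The arrays had 77.2 to 80.6% of spots well above background, 25 to 49 outlier spots each and no saturated spot. The 4 genotypes were spread over 4 slides. Slide 1 held both hda6-10 arrays and ros1-1 replicate 1, slide 2 held hda6-9 replicate 1 and ros1-1 replicate 2, slide 3 held hda6-9 replicate 2, and slide 4 held both C24 arrays, so C24 and slide cannot be told apart. Of the tissue markers, all 8 arrays gave signal well above background for 32 of 32 green-tissue probes, 7 of 7 root probes, 4 of 9 seed storage probes and 1 of 4 flower probes. The brightest seed storage probes (CRA1, CRU3) were low on hda6-9 replicate 2 and C24 replicate 2 and higher on the 6 other arrays, so they differed between arrays of 1 genotype. The HDA6 probe with the higher signal read -1.76 and -1.78 in hda6-10, 0.90 and 0.84 in hda6-9, -0.17 and -0.20 in ros1-1, and -0.31 and -0.24 in C24, on the scale explained below.

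Detection was lower for these probes than for RefSeq mRNA probes on every array. The share of members well above background, a flag of the scanner software, was 61.3 and 60.1% in hda6-10, 59.4 and 55.2% in hda6-9, 58.4 and 62.5% in ros1-1, and 63.9 and 61.7% in C24. The RefSeq mRNA probes lay between 83.0 and 85.6% on the same arrays. The members on the 4 hda6 arrays averaged 59.0% ± 2.65 (SD, n = 4) and those on the 4 arrays with functional HDA6 averaged 61.6% ± 2.3 (SD, n = 4). That difference of -2.61 percentage points did not exceed the spread between arrays (two-sided exact permutation test, p = 0.2, where the smallest p possible is 0.029). The difference for RefSeq mRNA probes was -0.417 percentage points (p = 0.514 by the same exact test). With 2 arrays against 2 the smallest exact p is 0.33, so single genotypes were not tested.

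**Figure D1:**
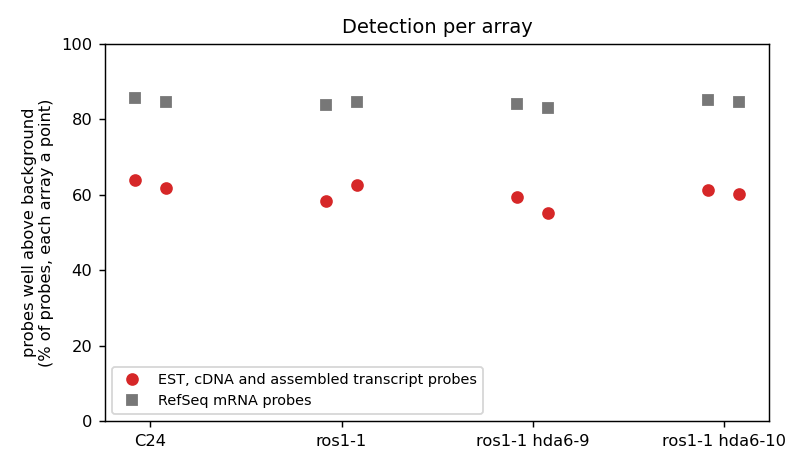
Share of probes well above background on each of the 8 arrays (percent, 1 point per array), for the 5860 EST, cDNA and assembled transcript probes (circles) and the RefSeq mRNA probes (squares). The member shares lay between 55.2 and 63.9% and overlapped between genotypes, and the RefSeq shares lay between 83.0 and 85.6%.

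A probe counted as detected in a genotype when both arrays of that genotype flagged it well above background. In all 4 genotypes 2986 members were detected (51.0%, against 80.5% of RefSeq mRNA probes), and 1622 members were above background on no array (27.7% against 11.1%). The members detected in both hda6 alleles and on no ros1-1 or C24 array numbered 65 (1.11% of members, against 0.444% of RefSeq mRNA probes). The reverse pattern, on in ros1-1 and C24 and on no hda6 array, held for 25 members (0.427% against 0.163%). Detection in 1 genotype with no other array above background was seen for 16 members in hda6-10, 4 in hda6-9, 10 in ros1-1 and 25 in C24. The shares were 0.273% in hda6-10 (0.0955% of RefSeq mRNA probes), 0.171% in ros1-1 (0.0309%) and 0.427% in C24 (0.168%). In hda6-9 the share was 0.0683% against 0.0505%. With 4 members this is too close to be read as a result about the members. The other patterns limited to some genotypes took a larger share of the members than of the RefSeq probes, in both directions. No test was made of these shares.

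The kinds differed in how often they were detected. All 4 genotypes gave signal for 57.4% of submitted sequences, 56.2% of assembled transcripts, 49.5% of ESTs and 34.3% of NP probes, and 43.1% of NP probes were above background nowhere. Of the 65 members on only in the 2 hda6 alleles, 26 were NP, 14 TC, 13 EG, 4 BX, and 2 each TA, AK, AY and BT, with none from BP, AV or DR. Their mean levels ran from -8.17 to 1.27 in hda6-9 (median -5.8) and from -7.57 to 0.90 in hda6-10 (median -5.12), and the ros1-1 and C24 means, all below the flag, had medians of -10.51. The 16 members detected in hda6-10 alone were dim there too, with means from -7.87 to -5.09. The 25 members of the reverse pattern were dim in all genotypes. Their median levels were -8.0 in ros1-1 and -7.78 in C24, against -8.65 in hda6-9 and -8.44 in hda6-10. Of these 25, 2 were called lower in hda6-10 and 3 in hda6-9 by the test described below.

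Levels here are log2 of the processed signal minus the log2 of the array's 75th percentile, so 0 is a bright spot and a step of 1 is a 2-fold change. Testing was limited to probes detected, as defined above, in 1 genotype or more, which 3752 members passed (64.0%, against 86.0% of RefSeq mRNA probes). Differences were fitted over all 35381 probes that passed, with limma, and a probe was called if its Benjamini-Hochberg adjusted p was under 0.05 and its change over 2-fold. A member that passed only because 1 genotype was bright was favoured to differ by the filter itself, so the counts below are also given for probes above background everywhere. For members detected on both arrays, the median difference between the 2 arrays of a genotype was 0.145 in C24, 0.205 in ros1-1, 0.205 in hda6-9 and 0.193 in hda6-10 on the log2 scale, against 0.117 to 0.144 for RefSeq mRNA probes. The labels call the arrays biological replicates, and RNA of whole seedlings cannot tell a change in the number of expressing cells from a change of RNA per cell.

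More members were called higher than lower in both hda6 alleles. In hda6-10 against ros1-1, 291 of 3752 members were called higher (7.76%, 280 accessions), where 5.01% of all tested probes were. Called lower were 40 members (1.07%), against 1.35% of all tested probes. In hda6-9 against ros1-1, 244 members were called higher (6.5%, 235 accessions) against 4.3% of all tested probes, and 58 were called lower (1.55%) against 1.37%. The 2 comparisons share the ros1-1 arrays. The share called higher was thus above the background in each allele, and the share called lower was near it. Of these calls, 28 higher and 5 lower in hda6-10, and 5 higher and 9 lower in hda6-9, were tested only through the brighter genotype.

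The median difference over all tested members was small in both: 0.06 in hda6-10 and -0.01 in hda6-9 on the log2 scale, against 0.02 in both over all tested probes. Of the 291 members higher in hda6-10, 116 were above background on both hda6-10 arrays and on neither ros1-1 array, and 86 of the 244 were so in hda6-9, which leaves no measured size for them. Where all 4 arrays of the comparison were above background, the 141 rises in hda6-10 had a median log2 difference of 1.73 and the 130 in hda6-9 one of 1.96, and 24 and 25 were over 16-fold. The 28 and 33 falls measured in the same way had medians of -1.31 and -1.36, and 0 were over 16-fold. Among the 2986 members above background on all 8 arrays, 137 (4.59%) were called higher in hda6-10 and 124 (4.15%) in hda6-9, where all such probes gave 3.43% and 2.95%.

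Each allele shared 1 slide with ros1-1. The median difference over tested members was 0.15 on slide 1 (2 hda6-10 arrays minus 1 ros1-1 array) and -0.09 on slide 2 (1 hda6-9 array minus 1 ros1-1 array). The called members are no check of direction within a slide, since the arrays of the 2 genotypes did not overlap for any of them. With slide fixed in the model, 238 members were called higher in hda6-10 and 133 in hda6-9, the second by over 1.5 times fewer. Quantile normalization moved the split between rises and falls, from 291 and 40 to 256 and 89 in hda6-10 and from 244 and 58 to 226 and 90 in hda6-9.

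**Figure D2:**
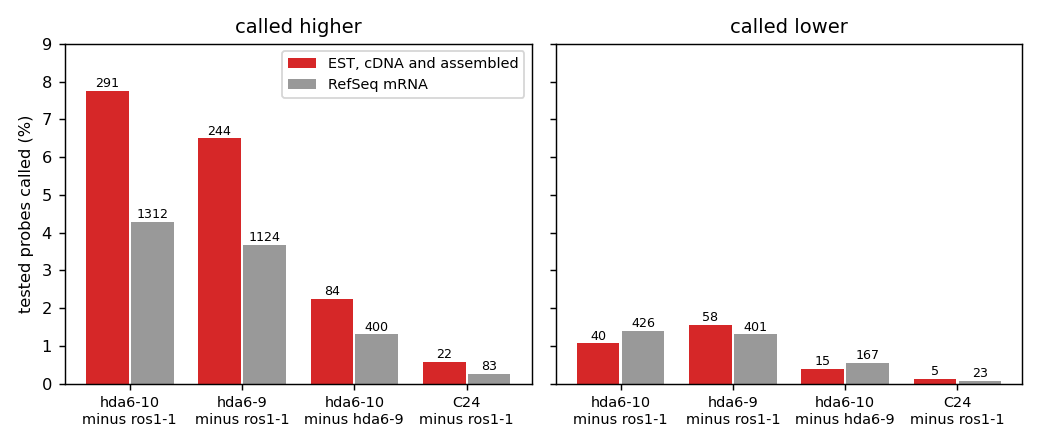
Percent of tested probes called higher (left) or lower (right) in each of 4 comparisons, for EST, cDNA and assembled transcript probes and for RefSeq mRNA probes; numbers on the bars are probes called. The members' bars for higher stand at 7.76, 6.5, 2.24 and 0.586%, each above the RefSeq bar beside it.

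The rises were uneven across accession classes. NP probes, the least often detected kind, had 78 of 449 tested probes called higher in hda6-10 (17.4%) and 73 in hda6-9 (16.3%). Submitted sequences had 65 of 572 (11.4%) and 54 (9.44%), and within them AY had 15 (17.9%) and 17 (20.2%) of 84, BT 7 of 28 in each allele and EF 9 of 24 (37.5%) in each. Assembled transcripts and ESTs as wholes stood near the background, with 95 of 1648 (5.76%) and 66 (4.0%) for assemblies and 53 of 1083 (4.89%) and 51 (4.71%) for ESTs.

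Both of those kinds were mixtures. TC consensus sequences had 51 of 483 called higher in hda6-10 (10.6%) and 40 in hda6-9 (8.28%), and TA assemblies had 44 of 1165 (3.78%) and 26 (2.23%). Among ESTs, EG had 30 of 199 in each allele (15.1%). BP had 5 of 317 (1.58%) and 3 (0.946%), and AV had 2 of 169 (1.18%) and 1 (0.592%). Over all tested members of a class the median difference in hda6-9 was -0.21 for AV, -0.14 for BP and 0.03 for EG, and in hda6-10 it was 0.17, 0.06 and 0.15. In AV and BP hda6-9 was detected less often than ros1-1, at 50.8% and 56.6% of the probes against 62.8% and 64.0%, and other classes showed this too, such as AI (52.8% against 62.3%) and TA (63.9% against 68.9%). Detection needs both arrays, so it depends on the weaker one. Over all members the hda6-9 arrays had 59.4 and 55.2% above background and the ros1-1 arrays 58.4 and 62.5%. On slide 2, which held both genotypes, hda6-9 replicate 1 had 59.4% and ros1-1 replicate 2 had 62.5%. The part of single arrays in these shares was not tested.

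The class shares changed when dim probes were left out. Among probes above background on all 8 arrays, NP had 32 of 319 called higher in hda6-10 (10.0%) and 36 in hda6-9 (11.3%), EG had 10 of 135 (7.41%) and 11 (8.15%), TA had 24 of 968 (2.48%) and 16 (1.65%), and BP had 3 of 260 (1.15%) in each. TC came close to the share of all such probes, with 19 of 371 (5.12%) and 13 (3.5%) against 3.43% and 2.95%, and BX had 1.18% in hda6-9. EF had 4 of 18 (22.2%) and BT 3 of 23 (13.0%) in each allele, and AY had 8 of 68 (11.8%) and 10 (14.7%). With the normexp background correction NP had 9.58% in hda6-10 and 5.57% in hda6-9 and EG 9.05% and 6.53%, where all tested probes gave 3.02% and 1.85%, so EG was then above NP in hda6-9. EF had 3 of 24 (12.5%) in each allele with normexp. With slide fixed it had 4 of 24 (16.7%) in each, where all tested probes gave 3.4% and 1.91%. Classes were compared as counts, with no test, since probes of 1 class can target the same transcript.

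**Figure D3:**
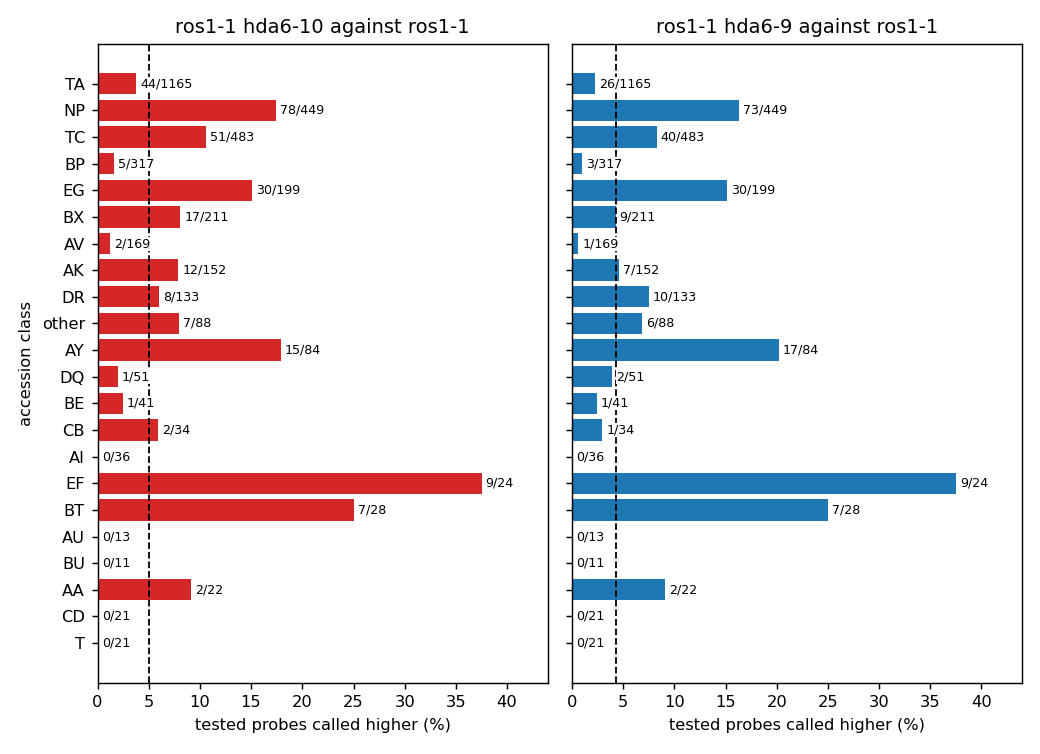
Percent of tested probes called higher than in ros1-1, by accession class, for hda6-10 (left) and hda6-9 (right), with called over tested probes beside each bar and the share of all tested probes as a dashed line (5.01 and 4.3%). NP, EG, AY, EF and BT stand far right of the line in both panels, and TA, BP and AV left of it.

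The probe with the largest rise among those measured on all arrays of both genotypes was NP301238. It read 2.47 and 2.62 in hda6-10, 1.33 and 1.28 in hda6-9, -6.71 and -7.39 in ros1-1, and -7.65 and -7.92 in C24. The hda6 arrays were thus among the bright probes and the others near the detection limit, with no overlap. The difference from ros1-1 was 9.60 ± 0.23 (SE) in hda6-10 (limma adjusted p = 1.8e-05) and 8.35 ± 0.23 in hda6-9 (adjusted p = 2.8e-05). The alleles themselves differed by 1.25 (adjusted p = 0.048), hda6-10 being the higher.

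TA25642_3702, a plant transcript assembly, behaved alike in the 2 alleles. Its levels were 2.18 and 2.36 in hda6-10, 2.05 and 2.16 in hda6-9, -6.96 and -7.64 in ros1-1, and -7.77 and -7.63 in C24. The log2 differences from ros1-1 were 9.57 ± 0.22 and 9.40 ± 0.22 (SE; limma adjusted p = 1.8e-05 and 1.7e-05), and the alleles differed by 0.16 ± 0.22 (adjusted p = 0.69).

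AY050454, a submitted sequence, read 2.87 and 2.68 in hda6-10 and 2.29 and 2.64 in hda6-9. In ros1-1 it read -5.43 and -6.26, and in C24 it was lower still at -7.55 and -7.80. The rise over ros1-1 was 8.62 ± 0.29 in hda6-10 and 8.31 ± 0.29 in hda6-9 (limma adjusted p = 4.9e-05 and 6e-05). BT025673 had the opposite order in the HDA6-functional lines, with -7.43 and -8.52 in ros1-1 and -6.25 and -5.79 in C24, a difference that did not pass the test (1.95 ± 0.35, adjusted p = 0.12). Its hda6 levels were 0.68, 0.65, 0.23 and 0.16, which put it 8.64 and 8.16 above ros1-1 in hda6-10 and hda6-9 (adjusted p = 9.8e-05 and 0.00012).

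TC361160 rose by 8.66 in hda6-10 and 8.10 in hda6-9 over ros1-1 (limma adjusted p = 7.1e-05 and 9.3e-05), where it was just above the detection limit at -8.30 and -8.27. TA47282_3702 read 0.67 and 1.08 in hda6-9, 0.16 and 0.08 in hda6-10 and -6.88 and -7.76 in ros1-1, and its rise in hda6-9 was 8.20 ± 0.29 (adjusted p = 6.2e-05). All of these probes belong to different classes or assemblies, and whether any pair of them reads the same transcript could not be determined without sequences.

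Where ros1-1 was not above background on either array the rise has only a lower bound, taken on each of those arrays against the higher of 2 signals: the dimmest one flagged as above background, and the probe's own. AK119008 was at least 781-fold higher in hda6-10 and at least 558-fold in hda6-9, with levels of 0.48, 1.31, 0.13 and 0.70 on the 4 hda6 arrays and no flagged signal on the 4 others (limma adjusted p = 0.00014 and 0.00017). TC361922 was at least 493-fold higher in hda6-10 and at least 1010-fold in hda6-9, from levels of 0.21 and 0.26 against 1.16 and 1.37. Here hda6-9 was the higher allele, by 1.04 on the log2 scale (hda6-10 minus hda6-9, -1.04 ± 0.11, adjusted p = 0.023).

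TC389609 was at least 154-fold higher in hda6-10, and TC366461 and TC360340 were each at least 153-fold higher in hda6-9. All 3 were above background on the 4 hda6 arrays, between -2.10 and -1.16, and on no ros1-1 or C24 array. TC383117 added a graded pattern: 1.64 and 1.82 in hda6-10, 1.89 and 2.05 in hda6-9, -4.89 and -6.14 in ros1-1, and not well above background in C24. It was at least 17.6-fold lower in C24 than in ros1-1 (limma adjusted p = 0.029), while it was 7.25 and 7.49 higher in the 2 alleles than in ros1-1 on the log2 scale (adjusted p = 0.00058 and 0.00048).

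EG432265 separated the alleles most. It read -1.06 and -0.56 in hda6-10, -8.14 and -8.03 in hda6-9 (the second array not well above background), and was above background on no ros1-1 or C24 array. It was at least 240-fold higher in hda6-10 than in ros1-1, and hda6-10 minus hda6-9 was 7.28 ± 0.18 (SE). It entered the test only through hda6-10, so these values are given as a description.

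**Figure D4:**
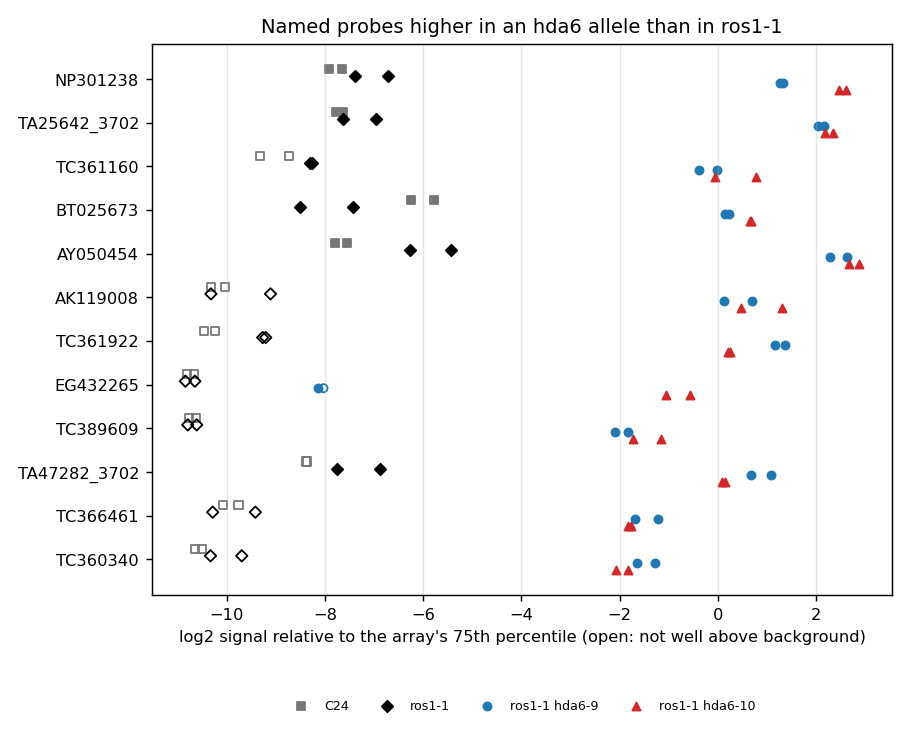
Log2 signal relative to the array's 75th percentile on each of the 8 arrays for 12 named probes higher in an hda6 allele than in ros1-1; open symbols were not well above background. The hda6 points lie between about 8 and 10 log2 units right of the ros1-1 points for most probes, and EG432265 is the one whose hda6-9 points lie with the dim group.

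Several probes on 1 accession allowed a comparison within the members. Of the 69 accessions with at least 2 tested probes, 13 had a probe called higher in hda6-10 and in 9 of these every tested probe was called. In hda6-9 the numbers were 13 and 8. No accession had probes called in opposite directions in any of the 4 comparisons. In each allele's comparison 1 accession had a probe called lower, and not all of its tested probes were, so opposite calls had little room to occur. Probes of 1 accession could differ: the 3 of BX828000 ran from -0.125 to 5.508 in hda6-10, with 2 called higher.

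Fewer members were called lower than higher. AY087114 fell by 2.21 on the log2 scale in hda6-10 and by 2.09 in hda6-9 (limma adjusted p = 0.0092 and 0.012), from 0.52 and 0.94 in ros1-1 to -1.18, -1.79, -1.54 and -1.19 on the hda6 arrays, with C24 between them at 0.26 and -0.33. T43643 dropped by 1.99 in hda6-10 and by 1.45 in hda6-9 (adjusted p = 0.0035 and 0.011). AK222109, TC359245 and DR271954 fell in hda6-10, by 2.09, 1.86 and 1.84 (adjusted p = 0.0073, 0.0032 and 0.0089), and gave -0.14, -0.22 and -0.67 in hda6-9, none past the threshold there (adjusted p = 0.77, 0.47 and 0.13).

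In hda6-9 the largest falls on measured signal were BX813389 (-2.43 ± 0.52, limma adjusted p = 0.038), TA26115_3702 (-2.22 ± 0.45, adjusted p = 0.033), AK229766 (-2.12 ± 0.28, adjusted p = 0.0083), AY087114 and NP227251 (4.0-fold lower, adjusted p = 0.036). TA49074_3702 was above background on the 2 ros1-1 arrays alone, at -5.84 and -5.41, and was at least 6.61-fold lower in hda6-10 and at least 7.15-fold in hda6-9. It entered the test only through ros1-1, so these values are a description, and it stayed in the counts of named falls below. NP230060 was at least 6.7-fold lower in hda6-9, and TA52661_3702 and TA50591_3702 at least 5.77-fold and 5.38-fold lower in hda6-10. TC394691 was at least 3.41-fold lower in hda6-9. DR378947 was at least 2.46-fold lower in hda6-10 and at least 3.34-fold in hda6-9. With slide fixed, 2 of the 9 named falls in hda6-10 and 0 of the 9 in hda6-9 were still called by limma, and 75 and 181 members were lower at an unadjusted p under 0.05 and over 2-fold in that fit. These unadjusted counts are not set against the share of all tested probes, so they say nothing of the members in particular. Over all settings AY087114 in hda6-10 lay between -2.52 and -1.91 and AK222109 between -2.35 and -1.84. Other sizes moved more. In hda6-10 T43643 lay between -2.30 and -0.68 and TA49074_3702 between -5.26 and -0.24. In hda6-9 NP230060 lay between -4.85 and -0.86. With normexp 4 and 3 of the 9 were called, and DR378947 in hda6-10 changed sign. The members called lower in hda6-9 numbered 33 without hda6-9 replicate 1, 38 without hda6-9 replicate 2, 34 without ros1-1 replicate 1 and 26 without ros1-1 replicate 2.

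Some root markers were low in hda6-9 as well. Both hda6-9 arrays lay below both ros1-1 arrays for 5 of 7 root probes, and hda6-10 did for 4 of 7. Of the tested members, 25.2% lay so in hda6-9 and 17.5% in hda6-10. SHR did not, at 0.055 and 0.233 in hda6-9 against 0.054 and 0.101 in ros1-1. Nor did a MYB36 probe, at -5.28 and -5.44 against -5.33 and -5.03. The brighter SCR probe read 0.007 and 0.055 against 0.195 and 0.138. SHV2 read -6.40 and -5.05 in hda6-9 against -3.67 and -3.53 in ros1-1, and CASP1, which builds the Casparian strip of the root endodermis, read -6.27 and -4.39 against -3.33 and -3.18. In hda6-10 SHV2 read -4.28 and -4.31 and CASP1 -3.05 and -4.78. In C24 SHV2 read -3.585 and -5.244 and CASP1 -2.62 and -3.76, so SHV2 on C24 replicate 2 lay below hda6-9 replicate 2. Of the 32 green-tissue probes, both hda6-10 arrays lay above both ros1-1 arrays for 22 and below for 1. For hda6-9 the numbers were 10 and 0. Of the tested members, 31.8% lay wholly above ros1-1 in hda6-10 and 27.6% in hda6-9. The summed level of the 7 root probes, on the log2 scale, was 1.1 to 1.25 in hda6-9, 1.23 to 1.24 in hda6-10, 1.3 to 1.31 in ros1-1 and 1.18 to 1.28 in C24. The part of root tissue in the falls and in the differences between alleles was not tested.

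The alleles were compared directly as well. Called higher in hda6-10 than in hda6-9 were 84 members (2.24%), against 1.43% of all tested probes, and 15 (0.4%) were called lower, against 0.537%. The 84 included 40 assembled transcripts, 20 ESTs, 13 submitted sequences and 11 NP probes, shares of 1.85 to 2.45% of the tested probes of each kind, so NP did not stand out here. Of the 84, 13 were tested only through hda6-10. No slide held both alleles. With slide fixed, where the alleles are linked only through the ros1-1 arrays and 1 hda6-9 array carries no information, limma called none in either direction, and 380 and 58 members passed an unadjusted p under 0.05 with over 2-fold change. The unadjusted counts have no share of all tested probes beside them and do not stand in for calls. With slide fixed the log2 differences of the 9 named higher members were 3.99 to 9.33, and those of the 5 named lower members -2.43 to -1.16. With the replicate block 0 of these 9 and 0 of these 5 were called. Leaving out 1 array gave 1 call higher without hda6-10 replicate 1, 25 without hda6-10 replicate 2, 7 without hda6-9 replicate 1 and 5 without hda6-9 replicate 2.

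TA46301_3702 had the largest difference on measured signal, at -0.81 and -1.43 in hda6-10, -5.39 and -4.96 in hda6-9, -4.72 and -4.46 in ros1-1, and -2.04 and -4.26 in C24. The difference was 4.06 ± 0.70 (limma adjusted p = 0.042), and the 2 C24 arrays lay 2-fold or more apart. BE039502, an EST, ran beside it on all 8 arrays, at -0.60, -1.17, -5.05 and -4.47 in the alleles, -4.38 and -4.25 in ros1-1, and -1.79 and -4.04 in C24, and differed between alleles by 3.88 (adjusted p = 0.048). For both probes the hda6-10 arrays were the high group, and the hda6-9 arrays lay below the ros1-1 arrays.

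BX813389 was called lower in hda6-9 than in ros1-1, and not called in hda6-10. It stood at -1.42 and -0.80 in hda6-10, -5.02 and -4.25 in hda6-9, -2.34 and -2.07 in ros1-1, and 0.46 and -0.97 in C24. The alleles differed by 3.52 (limma adjusted p = 0.032). TC390765 and EG455649 differed by 3.05 and 2.93 (adjusted p = 0.047 and 0.024), with C24 near hda6-10 (-4.53 and -5.25, -5.07 and -5.31) and ros1-1 near hda6-9.

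TC383177 was at least 16.5-fold higher in hda6-10 than in hda6-9, TA32495_3702 at least 6.78-fold, NP230704 at least 5.34-fold and TA33911_3702 at least 5.03-fold. The value of NP230704 on hda6-9 replicate 2 was dropped as an outlier spot, so its fit used 1 hda6-9 array. For 3 of these 4 probes both C24 arrays were above background. NP230704 was on only in hda6-10 and entered the test only through it.

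Fewer probes were higher in hda6-9 than in hda6-10. NP1655641 read -5.23 and -4.30 in hda6-9 and between -7.65 and -6.58 on the other 6 arrays, a difference of -2.35 (hda6-10 minus hda6-9, limma adjusted p = 0.049). BE530656 read 2.08 and 2.10 in hda6-9 and between 0.63 and 1.01 elsewhere, a difference of -1.27 (adjusted p = 0.027). TC359290 was above background in the 2 alleles alone, at -3.14 on both hda6-9 arrays and -4.23 and -5.08 in hda6-10, and its alleles differed by -1.52 (adjusted p = 0.045). AK222109 and TC359245, named above for their fall in hda6-10, differed by -1.96 and -1.64 (adjusted p = 0.028 and 0.024).

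**Figure D5:**
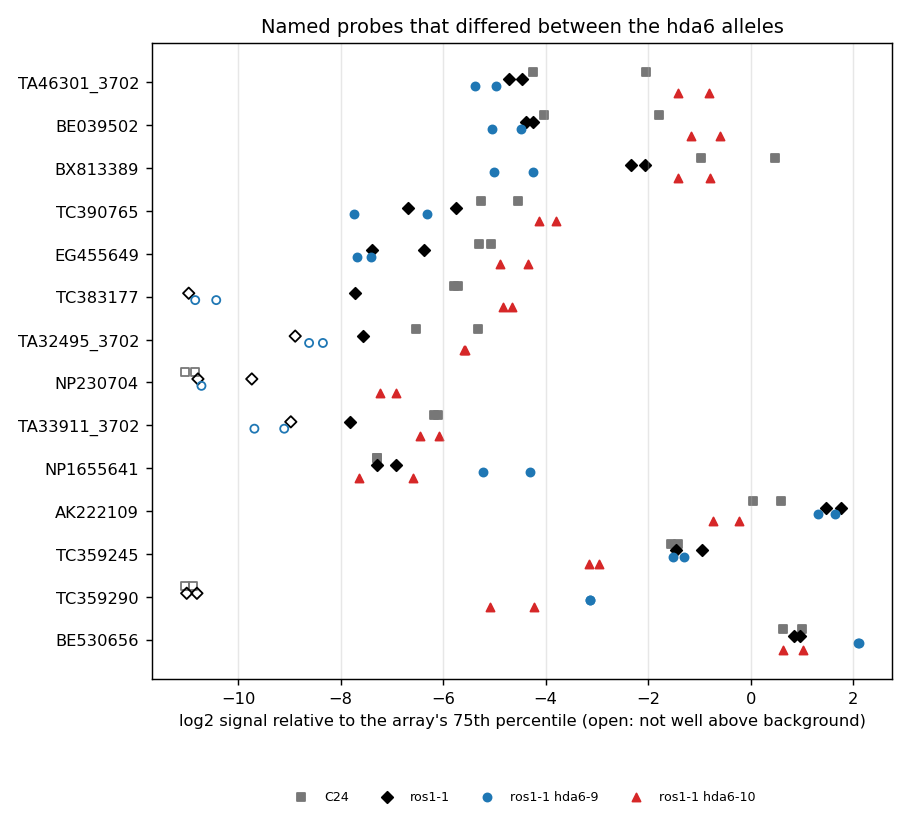
Log2 signal relative to the array's 75th percentile on each of the 8 arrays for the 14 probes named for a difference between the hda6 alleles; open symbols were not well above background. In the upper 9 rows the hda6-10 triangles lie right of the hda6-9 circles, by 2.89 to 5.88 log2 units, and in the lower 5 rows they lie left of them.

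C24 and ros1-1 differed for few members. Called higher in C24 were 22 (0.586%), against 0.339% of all tested probes, and called lower were 5 (0.133%), against 0.0904%. Of the 22, 8 were NP probes, 7 submitted sequences, 4 assemblies and 3 ESTs. Tested only through C24 were 4 of the 22, and 1 of the 5 only through ros1-1. With normexp 2 of the 9 named rises and 1 of the 4 named falls below were called. With the replicate block 7 of the 9 and 1 of the 4 were called. Leaving out a C24 array leaves 1 in that genotype, so only sizes of the named falls are given. Over all settings, leaving out each array included, TA28705_3702 lay between -1.996 and -1.545 and DR384226 between -1.337 and -0.47. TC383117 lay between -5.043 and -1.08 and AY464630 between -1.884 and -0.37. Without ros1-1 replicate 1 the count higher was 6, and because C24 had a slide of its own no value within a slide exists.

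BX826650 was high in C24 alone, at -2.62 and -2.78 against -5.92 and -5.70 in ros1-1 and -5.68 to -5.46 on the 4 hda6 arrays (C24 minus ros1-1, 3.11 ± 0.12, limma adjusted p = 0.002). NP033929 read -2.93 and -2.75 in C24, -5.32 and -5.50 in ros1-1, -1.75 and -1.92 in hda6-10 and -2.26 and -2.20 in hda6-9, and differed by 2.57 (adjusted p = 0.0021). Only the 2 ros1-1 arrays were low for it. BT011818 had the same order, with a difference of 2.55 (adjusted p = 0.006).

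NP306585 and 1 of the 2 probes of NP454105 gave nearly the same levels as each other on every array. The other NP454105 probe was too dim to be tested, and its fitted differences were 0.35 in hda6-10, 0.41 in hda6-9 and -0.02 in C24. NP306585 was at -1.27 to -1.20 on the hda6 arrays, -6.06 on both ros1-1 arrays and -3.68 and -2.67 in C24, so C24 lay between (C24 minus ros1-1, 2.88, limma adjusted p = 0.03). EG438722 was at least 5.07-fold higher in C24 than in ros1-1, where it was not above background, and stood at -5.93 and -6.80 in C24 and -3.20 to -2.92 on the hda6 arrays. CNS0A82N was at least 2.7-fold higher in C24, EG453541 at least 2.31-fold and TA48629_3702, on in C24 alone, at least 3.28-fold. TA48629_3702 entered the test only through C24, so its bound is a description.

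TA28705_3702 was lower in C24 than in the other genotypes, at -4.06 and -4.18 against -2.38 and -2.12 in ros1-1 (-1.87 ± 0.18, limma adjusted p = 0.023). DR384226 formed a ladder, at -7.41 and -7.35 in C24, -6.27 and -6.12 in ros1-1, -4.63 and -4.42 in hda6-9 and -3.92 and -3.65 in hda6-10, the C24 step being -1.18 (adjusted p = 0.032). AY464630 was above background only in ros1-1, at -7.36 and -7.38, and was at least 3.13-fold lower in C24, a description since it entered the test only through ros1-1.

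The probe with the highest mean signal of each class with at least 100 members did not pass the test in any comparison, and signals of different probes do not rank their transcripts. TC379145 stood between 7.03 and 8.00, TA53164_3702 between 7.16 and 7.67 and BP817514 between 7.08 and 7.73 on the 8 arrays. AV817792, DR276710, EG489412 and AK228733 had their lowest arrays at 5.91, 5.34, 4.98 and 4.43. NP173437 lay between 2.91 and 3.12, and BX830662 and AY085891 lay between 1.74 and 2.04 and between 1.23 and 1.78.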

How the data were processed

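Per the file headers, the authors extracted the arrays with Agilent Feature Extraction, and the deposited intensity values on a linear scale (processed signal, positive for every spot) carry its background subtraction, detrending and flags. From these values, control and outlier spots were left out (64 members lost a value), spots of a probe were averaged, and log2 signal was shifted by each array's 75th percentile. Means of the 4 genotypes over 8 arrays were fitted with limma 3.58.1 in R 4.3.3 (lmFit, eBayes), adjusted over all tested probes and tested on simulated data. The alternatives were normexp (offset 50, on the median signal), quantile and median normalization, other filters, slide, replicate block, the deposited combined matrix and leaving out each array.

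Named probes were, per comparison, the 5 largest rises and falls on measured signal, the 4 largest bounds, and the highest mean signal of each large class. The members and lists were chosen with earlier results of these data known. Word lists over descriptions, transposon names among them, could not be applied, since the columns used hold no description. The study's methods name P under 0.05 with 2-fold change and 4 biological replicates per sample; 2 arrays per genotype were analysed here.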

Additional observations from a re-analysis of the deposited data

Results flagged for a closer look

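The 2 hda6 alleles differed for 19 named members in the limma test of hda6-10 minus hda6-9, which is why each is listed here with its log2 difference. Members higher in hda6-10 were EG432265 at 7.28, TC383177 at 5.88, TA46301_3702 at 4.06, BE039502 at 3.88, NP230704 at 3.64, BX813389 at 3.52, TA33911_3702 at 3.13, TC390765 at 3.05, EG455649 at 2.93, TA32495_3702 at 2.89, EG453541 at 2.76, TC394691 at 2.19 and NP301238 at 1.25. Members higher in hda6-9 were NP1655641 at -2.35, AK222109 at -1.96, TC359245 at -1.64, TC359290 at -1.52, BE530656 at -1.27 and TC361922 at -1.04. For TC383177, NP230704, TA33911_3702, TA32495_3702, EG453541 and TC394691 no hda6-9 array was above background, so the value is a fitted difference and not a bound. EG432265 and NP230704 entered the test only through hda6-10. None of the 19 was still called with slide fixed, where the alleles are linked only through ros1-1 and hda6-9 replicate 2 carries no information. With the replicate block none of the 14 named for this comparison was called either. Over all settings, leaving out each array included, TA46301_3702 lay between 3.45 and 4.53 and BE039502 between 3.39 and 4.30. TC383177 lay between 1.94 and 9.33, and NP1655641 between -2.88 and -0.60. The part of slide in these differences was not tested. TA46301_3702 and BE039502 moved together on all 8 arrays, and no sequence was at hand to say whether they read 1 transcript.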

How the results depend on the processing

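The 9 named rises of each hda6 allele over ros1-1 were called under every alternative in which they were tested, leave-one-out included. They were picked as the largest calls in these same data, so this says nothing of the other calls. In hda6-10 they include EG432265, which entered the test only through hda6-10. Other counts depended on the processing, and the cause was not tested. With normexp the members called higher and lower were 172 and 14 in hda6-10 (291 and 40 as reported), 107 and 12 in hda6-9 (244 and 58), 33 and 7 in hda6-10 against hda6-9 (84 and 15) and 3 and 1 in C24 (22 and 5). DR378947 in hda6-10 turned from -2.72 to 0.308 (adjusted p = 0.42). With quantile normalization 89, 90 and 23 were lower in the 3 hda6 comparisons; rises then made up 74.2% of calls in hda6-10 (87.9% as reported), 71.5% in hda6-9 (80.8%) and 70.8% in C24 (81.5%). With probes above background on all 8 arrays, fewer probes being tested, 137 and 124 were higher in hda6-10 and hda6-9, 36 lower in hda6-9, 44 higher between alleles, and 11 higher and 2 lower in C24. With no filter 54 were higher between alleles and 8 lower in C24. With slide fixed 24 were lower in hda6-10, 133 higher and 25 lower in hda6-9, and 0 and 0 between alleles; no C24 value exists. At an unadjusted p, 73 and 114 were lower in hda6-10 and hda6-9, 195 higher and 31 lower between alleles, and 121 higher and 41 lower in C24. Counts at an unadjusted p are given for members only, with no share of all tested probes beside them.

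The replicate numbers did not pair the arrays (deviations correlated between -0.375 and 0.0626). With the replicate block 6 members were higher and 0 lower between alleles (187 and 27 at an unadjusted p), and 12 higher in C24. Leaving out each array gave 210 to 284 higher and 26 to 40 lower in hda6-10, 184 to 240 and 26 to 52 in hda6-9, 1 to 58 and 0 to 11 between alleles, and 6 to 17 and 2 to 9 in C24. The lowest lower counts came without ros1-1 replicate 1 in hda6-10 and without ros1-1 replicate 2 in hda6-9. The detection difference lay between -3.67 and -1.35 points, and was -2.31 with the software's other detection flag. A lone array of a genotype was assumed to vary like the others. Of the rises in hda6-10, 39.9% were above background on neither ros1-1 array, so their size is only bounded.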
